A study of Mus musculus with 10 samples.

Results

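The genes En1, En2, Pax2, Pax5, Pax8, Phox2a, Lmx1b, Lhx1 and Lhx5 encode transcription factors that pattern the midbrain and the hindbrain. They were chosen by name, and all 9 had a row among the 54532 genes of the deposited table. Brain RNA of 10 mice was sequenced, and all 10 were Slc20a2-HO, that is, homozygous for the knockout allele Slc20a2 tm1a(EUCOMM)Wtsi of a phosphate transporter gene whose loss leads to brain calcification, so no library of a wild type mouse was analysed here. From the age of 1.5 months, 6 mice received FTY720, a modulator of sphingosine-1-phosphate receptors, at 0.5 mg/kg in dimethyl sulfoxide and 4 received the solvent alone as placebo, by intraperitoneal injection 3 times a week for 12 weeks. The brain was halved, one side of the cut going into RNA and the other being fixed for histology, and the plane of that cut is not given in the sources used here. Each mouse carries a name such as F1-622 or P3-612, in which F is FTY720, P is placebo and the following digit is 1 or 3; the digit is not explained. The digit 1 mice were F1-622, F1-624, F1-918 and P1-623, and the digit 3 mice were F3-609, F3-612, F3-908, P3-612, P3-904 and P3-907. The digit 3 libraries were compared with the digit 1 libraries, to set the 9 genes beside markers ordered along the brain axis, and FTY720 was compared with placebo within the digit 3 mice.

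The boundary between midbrain and hindbrain is set up in the embryo by the isthmic organiser, a signalling centre at the neck between both. The engrailed homeobox genes En1 and En2 and the paired box genes Pax2, Pax5 and Pax8 are turned on around it, and engrailed and Pax proteins keep one another expressed. In the adult brain En1 and En2 are known from midbrain dopamine neurons and En2 also from cerebellar granule cells, Pax2 from cerebellar inhibitory interneurons, the LIM homeobox genes Lhx1 and Lhx5 from Purkinje cells, Lmx1b from dopamine and serotonin neurons, and Phox2a from noradrenaline neurons of the hindbrain and from eye-movement motor neurons. Lhx5 is also known from Cajal-Retzius cells of the cortex and from the hypothalamus.

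En1 and En2, and Lhx1 and Lhx5, are pairs of closely related genes, and their homeoboxes, which encode the DNA-binding homeodomain, are shown to let a reader judge how alike the reads of the members of a pair are. Each homeobox is 180 bases long and is given 5′ to 3′ on the coding strand from the GENCODE transcripts of GRCm38, with the bases that differ from the partner in capitals. That of En1 lies in exon 2 at chr1:120606917-120607096 on the plus strand and that of En2 in exon 2 at chr5:28170163-28170342 on the plus strand; 150 of the 180 bases were identical (83.3%).
En1: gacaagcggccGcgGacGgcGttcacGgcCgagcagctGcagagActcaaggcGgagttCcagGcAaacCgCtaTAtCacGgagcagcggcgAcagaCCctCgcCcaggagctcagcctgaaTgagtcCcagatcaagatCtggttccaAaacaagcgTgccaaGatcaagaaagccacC
En2: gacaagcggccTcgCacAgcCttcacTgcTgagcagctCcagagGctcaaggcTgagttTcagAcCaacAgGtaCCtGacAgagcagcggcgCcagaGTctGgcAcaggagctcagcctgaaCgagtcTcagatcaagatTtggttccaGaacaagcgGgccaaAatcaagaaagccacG
The Lhx1 homeobox is split over exons 3 and 4 at chr11:84520408-84521828 on the minus strand and the Lhx5 homeobox over exons 3 and 4 at chr5:120435491-120436349 on the plus strand, with 144 identical bases (80%).
Lhx1: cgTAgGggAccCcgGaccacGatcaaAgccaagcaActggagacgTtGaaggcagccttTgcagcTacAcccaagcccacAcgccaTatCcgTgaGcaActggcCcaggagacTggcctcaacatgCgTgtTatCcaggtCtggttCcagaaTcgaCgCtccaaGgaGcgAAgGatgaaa
Lhx5: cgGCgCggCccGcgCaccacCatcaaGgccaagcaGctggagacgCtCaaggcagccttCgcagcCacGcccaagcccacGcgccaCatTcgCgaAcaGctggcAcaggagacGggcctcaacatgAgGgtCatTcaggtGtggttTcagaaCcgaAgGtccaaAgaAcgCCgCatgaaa
The longest run of bases shared by the whole transcripts was 17 for En1 and En2 and 20 for Lhx1 and Lhx5. Among the Pax genes it was 27 for Pax2 and Pax8 and 17 for Pax5 with either.

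Promoters of 7 of the 9 genes were found in the RefSeq table of GRCm38.p6, with 9 sequences in all; En2 and Lhx5 had no entry. Each covers 250 bases before and 50 after the start of transcription. A gene is counted here if any of its sequences held a motif, while the shares of all promoters are per sequence. Of the 7 genes, 5 held CCAAT on either strand, against 37.4% of 32851 promoters of the same length, 4 held GGGCGG on either strand (35.7%), 4 held TAAT on either strand (58%), and none held TATAAA on either strand (13.6%) or the palindrome TAATTA (5.29%), which contains TAAT. The promoters of 4 genes are shown, those of Pax5 and Lhx1, which had the smaller shares of their digit 3 level in the digit 1 mice, and those of En1 and Lmx1b, which had larger shares, at chr4:44710645-44710944 (minus strand), chr11:84525485-84525784 (minus strand), chr1:120602237-120602536 (plus strand) and chr2:33641049-33641348 (minus strand). They run 5′ to 3′ towards the gene, and capitals mark CCAAT or ATTGG and TAAT or ATTA.
Pax5: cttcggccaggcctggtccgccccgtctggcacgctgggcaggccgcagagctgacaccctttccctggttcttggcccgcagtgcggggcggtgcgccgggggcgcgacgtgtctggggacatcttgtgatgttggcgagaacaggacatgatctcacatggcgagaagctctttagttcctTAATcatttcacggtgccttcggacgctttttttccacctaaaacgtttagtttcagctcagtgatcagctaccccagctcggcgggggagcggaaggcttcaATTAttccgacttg
Lhx1: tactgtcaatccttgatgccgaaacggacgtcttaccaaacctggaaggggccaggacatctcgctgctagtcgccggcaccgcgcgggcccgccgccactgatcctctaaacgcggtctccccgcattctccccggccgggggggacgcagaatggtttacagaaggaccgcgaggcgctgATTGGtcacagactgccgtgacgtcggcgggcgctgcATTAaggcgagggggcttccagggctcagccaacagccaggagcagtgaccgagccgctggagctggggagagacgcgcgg
En1: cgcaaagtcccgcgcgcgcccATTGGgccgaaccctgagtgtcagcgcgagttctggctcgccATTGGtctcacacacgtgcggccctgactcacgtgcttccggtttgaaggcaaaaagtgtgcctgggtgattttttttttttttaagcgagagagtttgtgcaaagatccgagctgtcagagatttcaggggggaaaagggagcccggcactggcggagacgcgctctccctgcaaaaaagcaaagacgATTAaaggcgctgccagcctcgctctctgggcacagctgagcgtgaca
Lmx1b: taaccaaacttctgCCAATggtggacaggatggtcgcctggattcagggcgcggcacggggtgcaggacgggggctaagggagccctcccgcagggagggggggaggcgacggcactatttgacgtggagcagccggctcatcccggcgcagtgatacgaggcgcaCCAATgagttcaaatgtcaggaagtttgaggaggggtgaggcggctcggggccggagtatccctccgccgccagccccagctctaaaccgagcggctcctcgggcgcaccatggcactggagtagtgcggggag

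Between 14772745 and 18303981 counts per mouse fell on genes, and the lowest chi-square per degree of freedom over the 45 pairs of libraries was 16.1, so no library was a repeat of another. The targeted gene Slc20a2 was read in all 10 mice, at 6.32 to 9.46 CPM (counts scaled to library depth by TMM) in the digit 1 mice and at 11.7 to 16.3 CPM in the digit 3 mice. These whole-gene counts do not show the allele. Of 17665 genes tested, 5010 passed an adjusted p of 0.05 between the digits (28.4%), 2462 higher and 2548 lower in digit 3. Without P1-623, the single placebo mouse among the digit 1 mice, 2593 passed, and without F3-609 2908 passed. Where a transcript comes from 1 cell type, fewer of those cells and less RNA per cell cannot be told apart in such libraries.

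Per length of transcript, the digit 3 mice had most En2, at 9.27 ± 1.25 FPKM (fragments scaled to transcript length and library depth, as deposited; SD, n = 6), followed by Lhx1 at 3.61 ± 0.528 and Lhx5 at 2.13 ± 0.274 FPKM. The ranges of these 3 genes did not overlap. En1 (0.927 ± 0.314 FPKM) and Pax2 (0.853 ± 0.113 FPKM) overlapped each other, and Lmx1b followed at 0.348 ± 0.112 FPKM. Pax5 (0.187 ± 0.0737 FPKM), Pax8 (0.158 ± 0.0224 FPKM) and Phox2a (0.0988 ± 0.046 FPKM) were lowest, with ranges that overlapped from Lmx1b to Pax5, from Pax5 to Pax8 and from Pax8 to Phox2a. The order in the 4 digit 1 mice was another. Lhx5 led at 0.851 ± 0.281 FPKM (SD, n = 4), then came Lhx1 (0.431 ± 0.223), En2 (0.37 ± 0.119), En1 (0.266 ± 0.14), Lmx1b (0.172 ± 0.0935) and Pax2 (0.0629 ± 0.0572 FPKM). The level of each gene from Lhx1 down to Pax2 overlapped with that of the next. Pax5 (0.0123 ± 0.00294 FPKM) and Pax8 (0.00822 ± 0.0103 FPKM) were lower again, and Phox2a was not counted.

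All 9 genes had a higher mean in the digit 3 mice, and they fell apart by how much remained in digit 1. En2, Pax2, Pax5, Pax8 and Lhx1 stood in the digit 1 mice at 4.05% to 12.2% of their digit 3 level, and Phox2a at 0. Lmx1b stood at 50.5%, Lhx5 at 40.8% and En1 at 29.2%. Of the 8 genes that passed the filter on low counts, 7 passed the test, all higher in digit 3, where 28.4% of all genes tested passed in either direction, 13.9% as higher and 14.4% as lower. Among the 8 genes tested, the digits did not overlap for 7, Lmx1b being the exception. Of all genes tested, 14.2% did not overlap, 7.8% with digit 3 higher. The digits of Phox2a, which was not tested, did not overlap either. Pax2, Pax5 and Pax8 passed the filter through the digit 3 mice, P1-623 being the single digit 1 mouse with over 10 counts of any of them (Pax2), so these counts are a description.

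**Figure D1:**
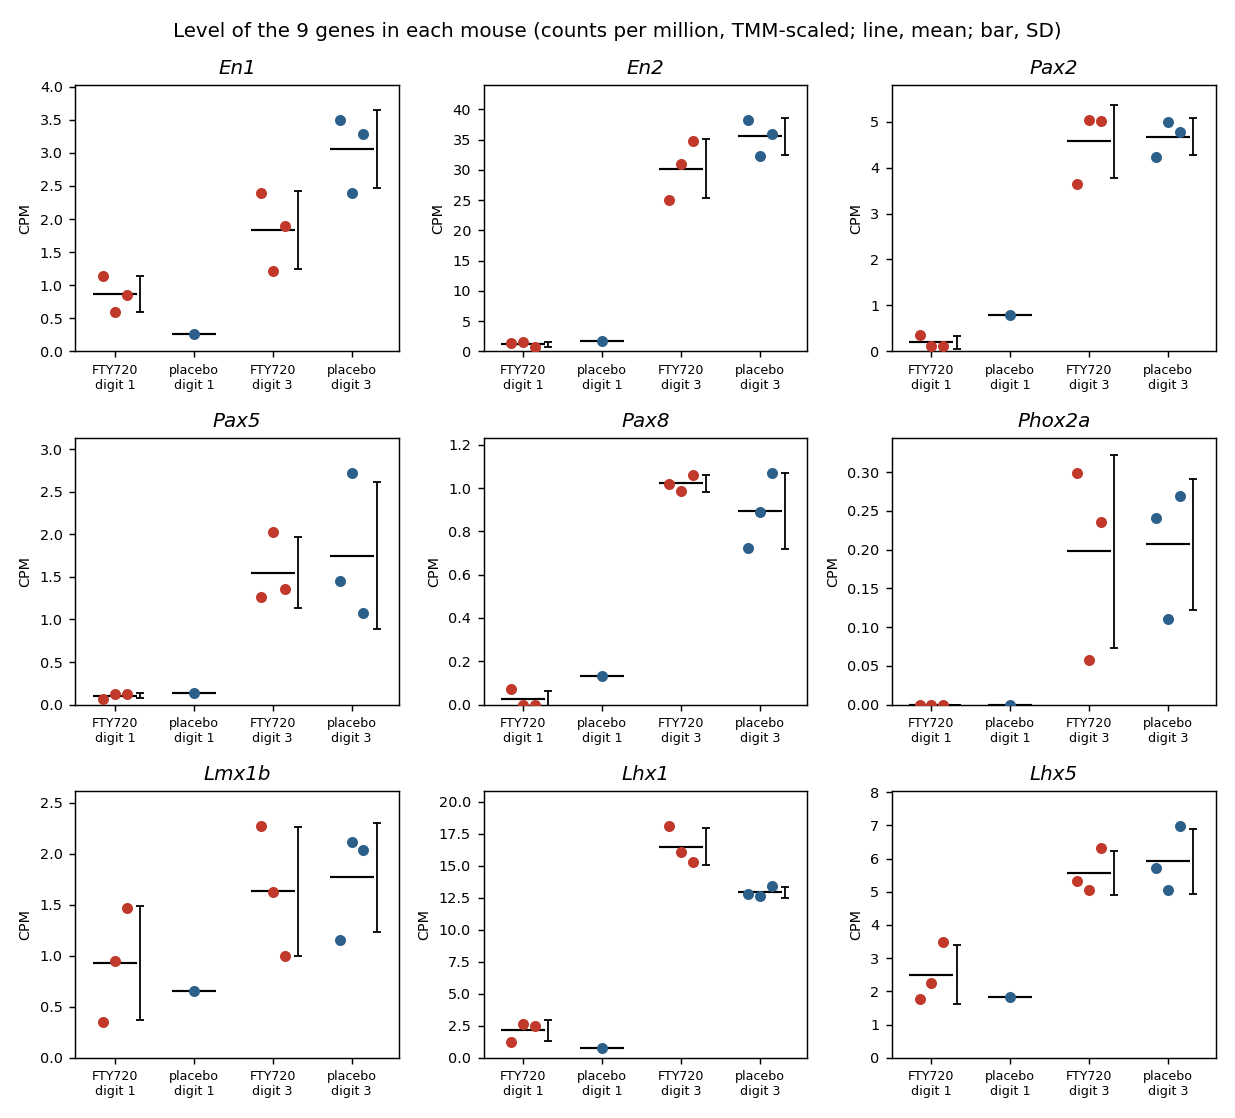
Level of each of the 9 genes in each mouse, in CPM (vertical axis, a separate linear scale from 0 for each gene), for FTY720 mice (red) and placebo mice (blue) of digit 1 and digit 3; lines are means, bars SD, and the single placebo mouse of digit 1 has no bar. En2 lay at 0.737 to 1.7 CPM in the digit 1 mice and at 25 to 38.3 CPM in the digit 3 mice, while the Lmx1b levels of the digits overlapped.

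Of the engrailed genes, En2 (ENSMUSG00000039095, chromosome 5 from 28165694 to 28172166, plus strand) was counted 12 to 26 times in the digit 1 mice, and 418 to 671 times in the digit 3 mice. In CPM it was 1.35 in F1-622, 1.54 in F1-624, 0.737 in F1-918 and 1.7 in P1-623, and 25 at the lowest, 33.5 at the median and 38.3 at the highest in digit 3. All 6 digit 3 mice were above all 4 digit 1 mice, and the log2 fold change of 4.57 (standard error 0.19), a 23.8-fold difference, passed the test (edgeR quasi-likelihood, Benjamini-Hochberg adjusted p = 6.48e-09). En1 (ENSMUSG00000058665, chromosome 1 from 120602418 to 120607992, plus strand) was at 1.14 CPM in F1-622, 0.593 in F1-624, 0.86 in F1-918 and 0.262 in P1-623, against 1.22, 2.39 and 3.5 CPM at the lowest, median and highest in digit 3. The digits did not overlap but came close, F1-622 lying just below F3-612. The log2 fold change of En1 was 1.67 (standard error 0.41, edgeR adjusted p = 0.0108). That call rested on P1-623, whose En1 count was 4: without it the log2 fold change was 1.11 (edgeR adjusted p = 0.0578), and among the FTY720 mice alone En1 did not pass either (adjusted p = 0.072). Gm43610, a gene model on the opposite strand that overlaps En2 by 365 bases, had 0 or 1 counts in the digit 1 mice and 15 to 40 in the digit 3 mice. The strand setting of the counting is not given in the sources used here, so reads of the stretch shared with En2 cannot be assigned. En1 had no overlapping gene in the table.

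The paired box genes were near the floor of detection in the digit 1 mice. They met the filter on low counts through the digit 3 mice, so their adjusted p-values between the digits are a description. Pax2 (ENSMUSG00000004231, chromosome 19 from 44756045 to 44837871, plus strand) had 5, 2 and 2 counts in F1-622, F1-624 and F1-918 and 12 in P1-623, and 61 to 90 counts in the digit 3 mice. Its level of 4.62 ± 0.565 CPM in digit 3 (SD, n = 6) stood against 0.345 ± 0.313 CPM in digit 1 (SD, n = 4), a log2 fold change of 3.71 (standard error 0.37, edgeR adjusted p = 3.14e-05). P1-623 gave 12 of the 21 digit 1 counts of Pax2, at 0.785 CPM, and without that mouse the log2 fold change of Pax2 was 4.54 (edgeR adjusted p = 2.26e-05). Pax5 (ENSMUSG00000014030, chromosome 4 from 44524757 to 44710487, minus strand) had 1, 2, 2 and 2 counts in the digit 1 mice and 20 to 49 in the digit 3 mice, with P3-904 highest at 2.72 CPM. The log2 fold change was 3.77 (standard error 0.47, edgeR adjusted p = 0.000183). Pax8 (ENSMUSG00000026976, chromosome 2 from 24420560 to 24475599, minus strand) was not counted in F1-624 and F1-918, had 1 count in F1-622 and 2 in P1-623, and 12 to 20 in each digit 3 mouse. Over the groups these were 3 counts against 100, a ratio of 20 after scaling to depth (95% exact interval 6.65 to 98.7, counting error alone), and the test gave an adjusted p of 0.000439 (edgeR quasi-likelihood, Benjamini-Hochberg). P1-623 gave 2 of the 3 digit 1 counts of Pax8, and leaving it out moved the fitted log2 fold change from 4.14 to 5.18. The ratio of Pax2 over Pax5 was 3.01 to 7.28 in FPKM in the digit 3 mice and 1.64 to 9.82 in the digit 1 mice (two-sided exact permutation test of the log2 ratio over 210 splits of the mice, p = 0.567). The digit 1 ratios rest on 7 Pax5 counts in all. Opposite-strand models overlap Pax2, Pax5 and Pax8, and the most counted, Gm12462 within Pax5, had 2 to 7 counts in each mouse of either digit.

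The LIM homeobox genes divided. Lhx1 (ENSMUSG00000018698, chromosome 11 from 84518284 to 84525535, minus strand) was at 1.21 CPM in F1-622, 2.67 in F1-624, 2.52 in F1-918 and 0.785 in P1-623, and at 12.6, 14.4 and 18.1 CPM at the lowest, median and highest in digit 3. Its digits were far apart, with a log2 fold change of 3.2 (standard error 0.23, edgeR adjusted p = 1.7e-06), a 9.16-fold difference. Lhx5 (ENSMUSG00000029595, chromosome 5 from 120431699 to 120441223, plus strand), the gene with the highest level per length in digit 1, was at 1.77, 2.25, 3.5 and 1.83 CPM in F1-622, F1-624, F1-918 and P1-623 and at 5.04, 5.53 and 6.98 CPM at the lowest, median and highest in digit 3. The difference was 2.5-fold, a log2 fold change of 1.32 (standard error 0.22, edgeR adjusted p = 0.00127). Gm27199 on the opposite strand overlaps Lhx5 by 69 bases and had 2 to 8 counts in digit 1 and 9 to 22 in digit 3, while Lhx1 had no overlapping gene.

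Lmx1b (ENSMUSG00000038765, chromosome 2 from 33560965 to 33640511, minus strand) did not pass the test, and its only overlapping gene, Gm38011, had 0 to 2 counts. It was at 0.355 CPM in F1-622, 0.948 in F1-624, 1.47 in F1-918 and 0.654 in P1-623, and at 1, 1.83 and 2.27 CPM at the lowest, median and highest in digit 3. F1-918 lay above F3-908 and P3-612. The log2 fold change was 1 (standard error 0.4; edgeR quasi-likelihood, Benjamini-Hochberg adjusted p = 0.0761; two-sided exact permutation p = 0.0286). Lmx1b passed without F1-918 (log2 fold change 1.35, edgeR adjusted p = 0.0398), without F3-908 (1.19, adjusted p = 0.0439) and with no filter on low counts (0.98, adjusted p = 0.0415). It was further from the threshold without F1-622 (0.78, edgeR adjusted p = 0.151), P1-623 (0.81, adjusted p = 0.266) or F3-609 (0.84, adjusted p = 0.205).

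Phox2a (ENSMUSG00000007946, chromosome 7 from 101818313 to 101822726, plus strand) was not counted in any of the 4 digit 1 mice and had 5, 1, 4, 4, 2 and 5 counts in F3-609, F3-612, F3-908, P3-612, P3-904 and P3-907. With so few counts it was not in the fit across genes. Its level was at least 4.2-fold higher in digit 3, when the digit 1 group is set at a floor of 3 counts over the group, and the two-sided exact permutation test gave p = 0.00952. Inppl1 on the opposite strand overlaps Phox2a by 95 bases at their ends and had 274 to 508 counts in the digit 1 mice, in which Phox2a had none. The other 7 genes whose digits did not overlap had the least value that the 210 splits of the mice allow, p = 0.00476 (two-sided exact permutation test).

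Within a mouse, where scaling to depth falls out, members of a related pair did not differ by the same factor. En2 exceeded En1 by 7.75 to 18.9 times in FPKM in the 6 digit 3 mice. In the digit 1 mice the ratio was 0.88 in F1-622, 1.93 in F1-624, 0.636 in F1-918 and 4.82 in P1-623, so that En1 was the higher of both in 2 of 4 mice. The mean log2 ratio was 3.39 ± 0.515 (SD, n = 6) in digit 3 and 0.595 ± 1.3 (SD, n = 4) in digit 1, and no mouse of one digit reached the other (two-sided exact permutation p = 0.00476, the smallest 210 splits allow). Lhx1 over Lhx5 was 1.27 to 2.24 in the digit 3 mice and 0.283 to 0.782 in the digit 1 mice (difference of mean log2 ratios 1.86, two-sided exact permutation p = 0.00476). Lhx1 was thus above Lhx5 in every digit 3 mouse and below it in every digit 1 mouse. Over the 3 ratios tested, the Benjamini-Hochberg adjusted value of both exact permutation p-values was 0.00714, and that of Pax2 over Pax5 was 0.567.

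**Figure D2:**
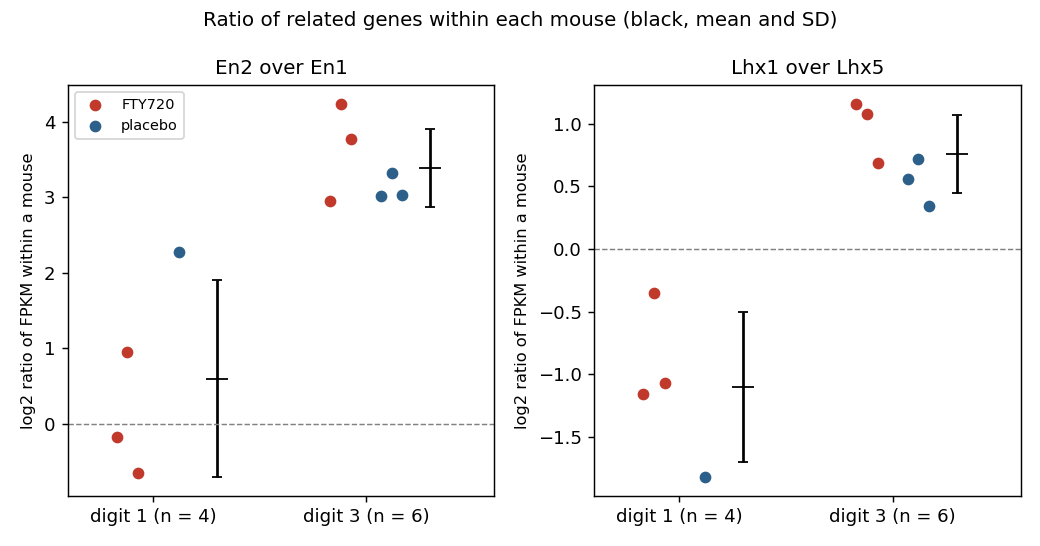
Log2 ratio of FPKM of En2 over En1 (left) and of Lhx1 over Lhx5 (right) within each mouse, by digit and treatment (FTY720 red, placebo blue), with the mean and SD over each digit in black; the dashed line marks equal levels. The Lhx1 to Lhx5 ratio was 1.27 to 2.24 in the digit 3 mice and 0.283 to 0.782 in the digit 1 mice, on opposite sides of the line.

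Markers ordered along the brain axis were set beside the 9 genes, by lists written by hand. All 16 telencephalic transcription factors had lower fitted values in digit 3 and 15 of them passed the test (median log2 fold change -0.7, against -0.01 for all genes tested). Of 12 diencephalic factors tested, 9 had lower fitted values, 3 of which passed, and 3 had higher ones, 1 of which passed; Tcf7l2, a thalamic gene, did not pass (log2 fold change -0.17, edgeR adjusted p = 0.249). Of 10 midbrain factors, 3 passed as higher, with 2 to 14 counts per digit 1 mouse and 7 to 34 per digit 3 mouse, so that they met the filter mainly through digit 3 and the count is a description; the median was 0.53, against 3.2 to 4.57 for En2, Pax2, Pax5, Pax8 and Lhx1 and 1 to 1.67 for Lmx1b, Lhx5 and En1. Tfap2d of the dorsal midbrain, 1 of these 3, had a log2 fold change of 1.43, within the range of Lmx1b, Lhx5 and En1. Pax7, from the same region, had 0.52 (edgeR adjusted p = 0.219). Slc6a3, the dopamine transporter, which marks the midbrain dopamine neurons in which En1, En2 and Lmx1b are known, was at 14 ± 1.46 CPM in digit 1 and 14 ± 1.26 CPM in digit 3 (log2 fold change 0.02, edgeR adjusted p = 0.917). Of the 9 dopamine neuron genes tested 3 rose, and Th, the rate-limiting enzyme of dopamine synthesis, had -0.26 (edgeR adjusted p = 0.212). Otx2, which is known to end at the midbrain-hindbrain boundary in the embryo, had 0.45 (edgeR adjusted p = 0.0505).

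Several markers of neurons behind the midbrain were, like Phox2a, nearly absent from the digit 1 mice. Of 19 hindbrain factors, mostly Hox genes, 13 were at 0 in all 4 digit 1 mice; 12 had enough counts to be tested and all 12 rose, 8 of them having no digit 1 count and so entering the test through the digit 3 mice alone, which makes that count a description. The summed level was 0.426 to 0.86 CPM in digit 1 and 19.3 to 31.1 CPM in digit 3. Hoxb5 had 0 counts against 447, at least 89.5-fold higher at a floor of 3 counts over the group. Of 6 noradrenaline neuron genes 4 rose, and Slc6a2, the noradrenaline transporter, had 0 counts against 330 (at least 66-fold higher) and Dbh, which makes noradrenaline, 23 against 225. Of 6 serotonin neuron genes tested 4 rose. Slc6a4, the serotonin transporter, had 2 counts against 283, and Tph2, which makes serotonin and shares its neurons with Lmx1b, was at 1.18 ± 0.652 CPM in digit 1 (SD, n = 4) and 7.46 ± 5.7 CPM in digit 3 (SD, n = 6). F3-609 was highest in digit 3 in both Tph2, at 18.9 CPM, and Lmx1b, at 2.27 CPM. F3-612 was lowest in Tph2, at 3.24 CPM, and not lowest in Lmx1b, at 1.62 CPM. The part of serotonin neurons in the Lmx1b level was not tested. Of 8 Hox genes of the spinal cord, none was tested, and their sum was at most 0.215 CPM in any mouse.

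Cerebellar markers were higher in digit 3, as all 9 genes were by their means. Of 8 granule cell genes, all rose (median log2 fold change 2.76), from a sum of 124 to 143 CPM to 1100 to 1190 CPM, and Gabra6, a GABA receptor subunit of granule cells, had 7 counts against 15303. All 10 Purkinje cell genes rose (median 1.66; sum 770 to 959 CPM against 1590 to 2280 CPM); Pcp2 had 7 counts against 2657 and Skor2, a Purkinje cell transcription factor, 3 against 241. All 4 interneuron genes tested rose (median 3.02; sum 39.5 to 59.2 against 143 to 184 CPM). Genes such as Gabra6, Pcp2 and Skor2 met the filter through the digit 3 mice, so the counts of rising cerebellar genes are a description. The part of cerebellar cells in the levels of the 9 genes was not tested. Without P1-623 or without F3-609, 12 and 13 telencephalic genes passed, and the midbrain list had 1 and 2 genes past the threshold, the dopamine list 1 and 2, and the serotonin list 2 and 2. Scaling by RLE or by the upper quartile turned no median of the telencephalic, diencephalic, midbrain, hindbrain, monoamine and cerebellar lists.

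**Figure D3:**
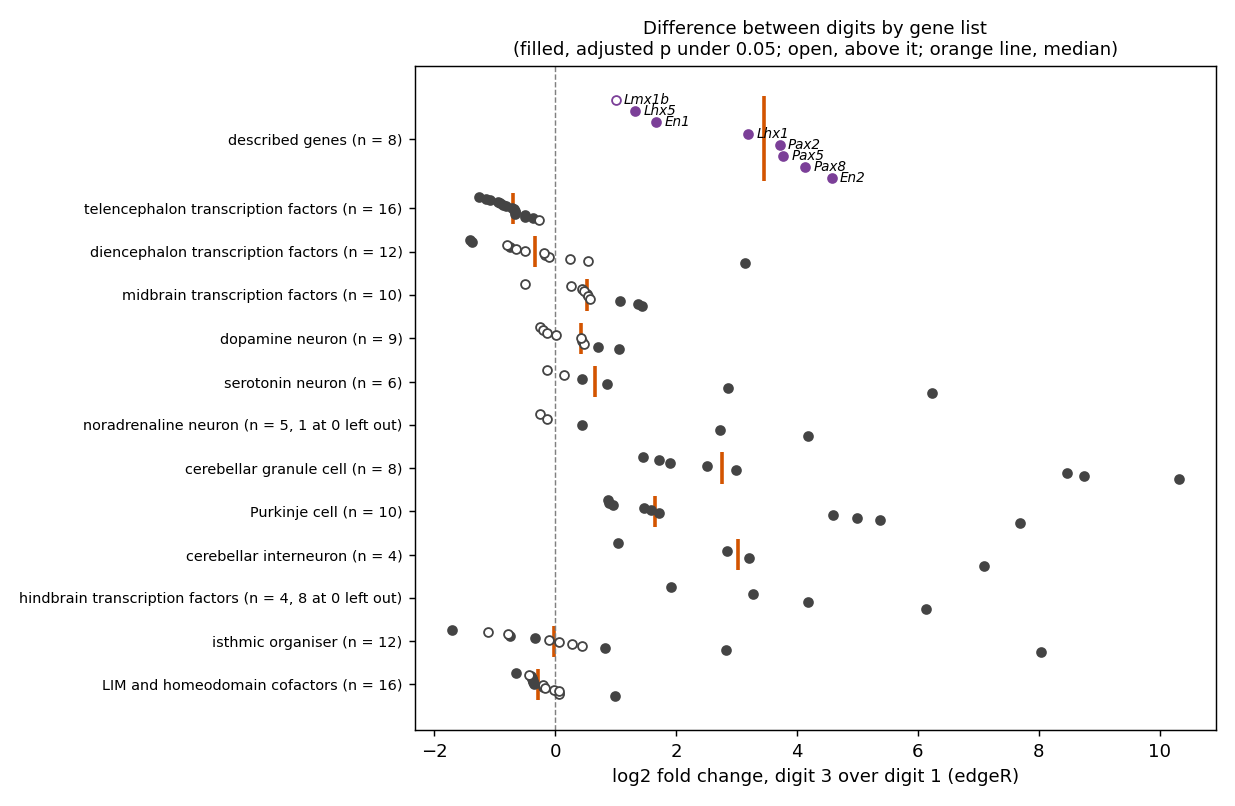
Log2 fold change of digit 3 over digit 1 (horizontal axis, edgeR) for the 8 tested genes of the described set (purple, named) and for the genes of 12 marker lists (grey); filled points passed an adjusted p of 0.05, open points did not, and orange lines are medians. Telencephalic factors lay below 0, midbrain factors around a median of 0.53 and the 8 genes named from 1 to 4.57; 8 hindbrain genes and 1 noradrenaline gene with no count in digit 1 are left out because they have no finite fold, and those lists have no median line.

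Partners of the 9 genes did not share one direction. Of 12 isthmic organiser genes tested, 6 had higher fitted values in digit 3, of which 3 passed, and 6 had lower ones, of which 3 passed; without P1-623, 1 of the lower passed. Wnt1 and Fgf17, signals of the organiser, had log2 fold changes of -0.77 (edgeR adjusted p = 0.161) and -1.11 (adjusted p = 0.109), so that neither passed. Cnpy1, named after its values were seen, had 1 to 12 counts in the digit 1 mice and 1802 to 2222 in the digit 3 mice. Of 16 cofactors of LIM and other homeodomain proteins, 12 had lower fitted values, of which 7 passed, and 4 had higher ones, of which 1 passed. The lower calls fell to 4 without P1-623 and to 3 without F3-609. Ldb1, which binds the LIM domains of Lhx1, Lhx5 and Lmx1b, fell by 0.38 on the log2 scale (edgeR adjusted p = 0.0412) and Ldb2 by 0.38 (adjusted p = 0.012). The lists of cranial motor neurons, choroid plexus, meninges and blood and pituitary had 2 of 3, 1 of 7, 0 of 7 and 2 of 2 genes past the threshold. The choroid plexus call was 1 lower gene as scaled here and 1 higher gene under the upper quartile, with 1 of each under RLE and none without P1-623 or without F3-609. Leaving out F3-609 or P1-623 also changed which calls were made in the cranial motor neuron and pituitary lists, so no direction is given for them.

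The last number in each name, which the labels do not explain, begins with 6 or 9, and both kinds occur in each digit. Among the mice whose number begins with 6 (3 against 3, treatment as a term), En2 had a log2 fold change of 4.34 and Lhx1 of 3.36, and 6 of the 8 tested passed, beside 1299 of all 17958 genes, but En1, at 1.81, did not (edgeR adjusted p = 0.0873). Among those that begin with 9, F1-918 was the single digit 1 mouse, so that the spread came from the 3 digit 3 mice and F1-918 was assumed to vary like them. The fit had no treatment term, although F1-918 and 1 digit 3 mouse received FTY720 and 2 digit 3 mice placebo. Only its fold changes are given. There the log2 fold changes were 5.58 for En2, 2.5 for Lhx1, 1.6 for En1, 0.86 for Lhx5 and 0.28 for Lmx1b.

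Within digit 1 the treatments could be compared by value alone, as there was 1 placebo mouse. P1-623 was below the 3 FTY720 mice in En1 (0.262 against 0.593 to 1.14 CPM) and Lhx1 (0.785 against 1.21 to 2.67 CPM). It was above them in En2 (1.7 against 0.737 to 1.54 CPM), Pax2 (0.785 against 0.119 to 0.355 CPM), Pax5 and Pax8, the last 2 with 2 counts each. In Lmx1b and Lhx5 it lay among them.

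FTY720 was compared with placebo within the 6 digit 3 mice, 3 against 3, at the unadjusted p of 0.05 that the study used. Of 8 genes tested, Lhx1 was higher and En1 lower with FTY720, and the other 6 did not pass; 7.27% of all 17656 genes tested passed, 2.78% as higher and 4.49% as lower, and none passed an adjusted p of 0.05 (edgeR quasi-likelihood, smallest Benjamini-Hochberg adjusted p = 0.654). With 3 against 3 an exact permutation p cannot go below 0.10. Lhx1 was at 18.1, 16.1 and 15.3 CPM in F3-609, F3-612 and F3-908 and at 12.8, 12.6 and 13.4 CPM in P3-612, P3-904 and P3-907. All 3 FTY720 mice were above all 3 placebo mice, as in 6.9% of all genes tested, and the fold was 1.27 (log2 fold change 0.35, standard error 0.13; edgeR p = 0.026, adjusted p = 0.654; two-sided exact permutation p = 0.1). En1 was at 2.39, 1.22 and 1.89 CPM with FTY720 and at 3.5, 2.39 and 3.28 CPM with placebo, in the same order of mice. F3-609 and P3-904 were equal to 3 digits, so the groups touched, and the log2 fold change was -0.74 (standard error 0.305; edgeR p = 0.0391, adjusted p = 0.654; two-sided exact permutation p = 0.2).

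Neither call was firm. With the first digit of the mouse number as a covariate, both were lost, with an unadjusted edgeR p of 0.064 for Lhx1 (log2 fold change 0.33) and of 0.0568 for En1 (-0.77). Each was also lost when any of 4 of the 6 mice was left out: F3-609, F3-612, P3-612 or P3-907 for Lhx1 and F3-612, F3-908, P3-612 or P3-907 for En1. With 1 mouse left out, the log2 fold change was 0.28 to 0.40 for Lhx1 and -0.97 to -0.51 for En1. In the digit 1 mice the sign of the Lhx1 difference was the same, but that of En1 was the opposite, P1-623 having the lowest En1 of all 10 mice.

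The remaining genes did not pass. En2 was at 25, 31 and 34.7 CPM with FTY720 and 38.3, 32.3 and 36 CPM with placebo (log2 fold change -0.23, interval -0.52 to 0.05 as 1.96 standard errors). Pax2 (-0.03, interval -0.44 to 0.37) and Lhx5 (-0.09, interval -0.47 to 0.29) were held within narrower limits than Pax5 (-0.18, -0.98 to 0.62), Pax8 (0.18, -0.49 to 0.85) and Lmx1b (-0.12, -0.88 to 0.63). Phox2a had 10 counts in the 3 FTY720 mice and 11 in the 3 placebo mice. The intervals of Pax5, Pax8 and Lmx1b rest on 12 to 49 counts per mouse and leave room for differences as large as that of En1.

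**Figure D4:**
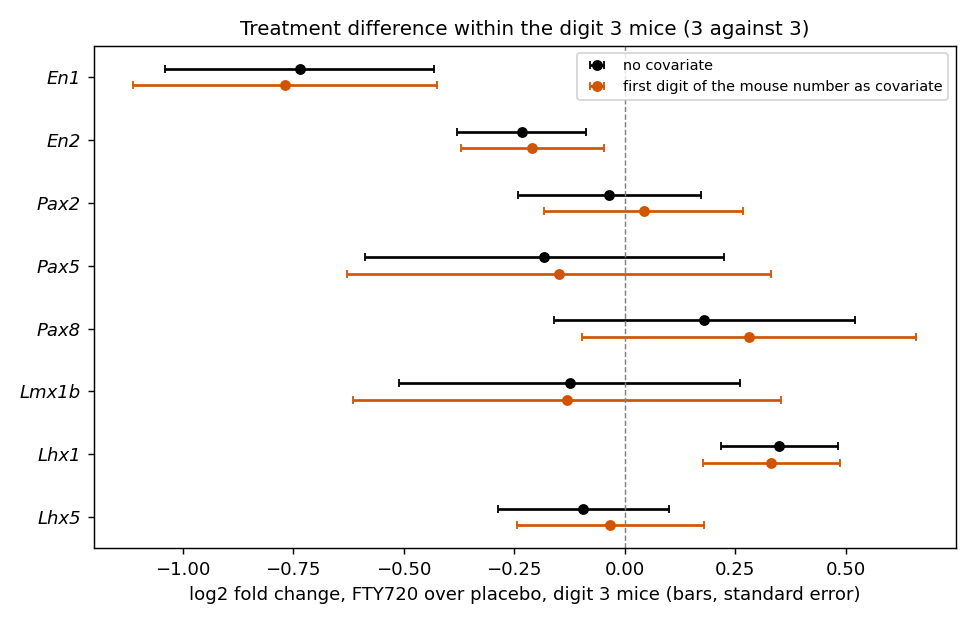
Log2 fold change of FTY720 over placebo in the digit 3 mice (3 against 3) for the 8 tested genes, with bars of 1 standard error, from the fit with no covariate (black) and with the first digit of the mouse number as a covariate (orange). Only Lhx1 (0.35) and En1 (-0.74) passed an unadjusted p of 0.05 in the first fit, and none did in the second.

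Markers of neighbouring tissue are given for the same mice, beside the 7.27% of all genes that passed the unadjusted threshold; no gene of these lists passed an adjusted p of 0.05. The hindbrain list summed to 19.3 to 24 CPM in the 3 FTY720 mice and 25.6 to 31.1 CPM in the 3 placebo mice, and 5 of its 13 tested genes passed, all lower. The telencephalic list summed to 359 to 396 CPM with FTY720 and 398 to 437 CPM with placebo (2 of 16 passed, both lower). The Purkinje cell list, whose cells are known to express Lhx1, summed to 1700 to 2280 CPM with FTY720 and 1590 to 1920 CPM with placebo, which overlap (1 of 10 passed, higher), and the granule cell list to 1130 to 1190 against 1100 to 1120 CPM (2 of 8 passed, both higher). Of the 10 Purkinje cell genes, 8 had higher fitted values with FTY720 and 2 lower ones. The means of Pcp2 (23 against 28 CPM) and Skor2 (2.22 against 2.4 CPM) were lower with FTY720. Of the 8 granule cell genes, 5 had higher fitted values and 3 lower ones, with Barhl1 at 3.43 against 5.05 CPM. The part of these tissues in the Lhx1 and En1 differences was not tested. The midbrain list had no gene past the threshold (0 of 10). Of 9 dopamine neuron genes tested, 1 passed, Th, which fell by 0.38 (edgeR p = 0.037, adjusted p = 0.654, two-sided exact permutation p = 0.1). Slc6a3 was at 13.6 CPM with FTY720 and 14.4 CPM with placebo and did not pass.

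Over all 10 mice, as the study compared them, FTY720 against placebo gave lower fitted values for all 8 tested genes (log2 fold change -0.82 for En1 to -0.1 for Lhx1), and none passed an unadjusted p of 0.05 (p from 0.148 to 0.9, edgeR), where 2.61% of all genes tested did. The digits are unequal in this comparison, with 3 of 6 FTY720 mice and 1 of 4 placebo mice in digit 1. En2 ranged from 0.737 to 34.7 CPM with FTY720 and from 1.7 to 38.3 CPM with placebo. Lhx1, higher with FTY720 within digit 3, was at 9.32 ± 7.95 CPM with FTY720 (SD, n = 6) and 9.9 ± 6.09 CPM with placebo (SD, n = 4) over all mice.

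Among the 6 digit 3 mice, Pearson's r of log2 CPM between the 9 genes ranged from -0.836 for Pax5 and Phox2a to 0.713 for En1 and Phox2a, both pairs resting on the 1 to 5 Phox2a counts of a mouse. It was 0.39 for En1 and En2, 0.45 for Pax2 and Pax5, -0.23 for Lhx1 and Lhx5 and -0.8 for En2 and Lhx1; each is a description over 6 points that share library and treatment. The genes most like En2 over these mice were Espn (r = 0.999) and Mlycd (0.998) of 11484 compared, those most like Lhx1 were Tmf1 (0.995) and Ccng2 (0.994), and those most like En1 were Litaf (0.986) and Gng4 (0.983).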

How the data were processed

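The authors called bases with CASAVA 1.8, aligned paired-end reads of NEBNext Ultra libraries to GRCm38/mm10 with HISAT2 2.0.5 and deposited counts per gene and mouse without normalization (featureCounts 1.5.0-p3 per the submitters' processing notes; annotation release and strand setting are not given in the sources used here). FPKM values, also deposited, were used as they stand. Fold columns of the authors were not used.

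Counts were filtered with filterByExpr by treatment, scaled by TMM and tested across all genes with edgeR 4.0.16 in R 4.3.3 (quasi-likelihood, Benjamini-Hochberg). Digit 3 was set against digit 1 over 10 mice with treatment as a term, called at an adjusted p of 0.05. FTY720 was set against placebo over the 6 digit 3 mice and over all 10 mice with no covariate, called at an unadjusted p of 0.05. Standard errors are the log2 fold change over the square root of F. Single genes were compared by two-sided exact permutation tests of log2 CPM (prior count 2). Totals of 14772745 to 18303981 counts per mouse leave genes under about 10 counts imprecise. The exact interval of the Pax8 ratio and the floors cover counting error only, while intervals of log2 fold changes rest on the spread between mice. The fits were tested on simulated data with changes in well counted genes only. That simulation does not cover genes at the levels of En1, Pax5, Pax8, Phox2a and Lmx1b.

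Alternatives were DESeq2 1.42.0, RLE scaling, limma-voom and limma 3.58.1 on log2(FPKM + 0.1) and log2(FPKM + 1), no filter, at least 10 counts in every mouse, the number's first digit as a covariate, no covariate, subsets of mice and each mouse left out. Promoters came from RefSeq GRCm38.p6 and homeoboxes from GENCODE transcripts. Named were the 9 genes, Slc20a2, overlapping genes, markers from the lists, and the genes most like each member among those with a mean of 100 counts. The members and lists were chosen with earlier results of these data known.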

Additional observations from a re-analysis of the deposited data

Results flagged for a closer look

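In 35 groups of 4 or 6 mice, the highest or lowest mouse was checked for standing far from the rest, a check that chance alone trips in about 1 of 20 groups, and 2 stood apart. Both were P1-623 among the 4 placebo mice, at 1.7 CPM in En2 against 32.3 to 38.3 CPM in the other 3, and at 0.785 CPM in Lhx1 against 12.6 to 13.4 CPM. P1-623 is the single placebo mouse with the digit 1, and its En2 and Lhx1 levels lay close to the 3 FTY720 mice with that digit, at 0.737 to 1.54 CPM and 1.21 to 2.67 CPM.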

How the results depend on the processing

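Between the digits, En2 and Lhx1 kept their direction in every alternative run, and passed in each with more than 1 mouse per digit. So did Pax2, Pax5 and Pax8 where tested, but they enter the test through the digit 3 mice, so this says nothing of their stability. With at least 10 counts in every mouse only 3 of the genes were tested, and all 3 passed; leaving out 1 mouse gave 6 to 8. Over all genes, the 5010 calls became 3106 in the FTY720 mice alone, 1299 in the mice whose number begins with 6, 565 in those with 9 (3 mice against F1-918 alone, which is assumed to vary like them), and 2593 to 6046 with 1 mouse left out.

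Within digit 3 the results were weaker. The 1283 genes at an unadjusted p of 0.05 became 2340 with no filter, 738 with the number's first digit as a covariate, 2256 with an additive digit term over all mice, and 388 (without F3-609) to 3896 (without P3-904) with 1 mouse left out. With no filter, 134 genes passed an adjusted p of 0.05, where the reported fit had 0. Of the 2 genes described that passed, 1 passed with DESeq2, 1 with no filter, 0 with the number's first digit, 1 with a mean for each combination of treatment and digit, 1 with the additive term, and 0 to 2 with 1 mouse left out. The sign turned for Pax2 with the number's first digit (0.0426) and, with the additive term, for Pax8 (-0.0065), Lmx1b (0.0248) and Lhx5 (0.0406). Leaving out 1 mouse gave -0.11 to 0.10 for Pax2, -0.44 to 0.31 for Pax5, -0.44 to 0.13 for Lmx1b and -0.20 to 0.0409 for Lhx5. Over all mice, 461 genes became 738 with DESeq2, 1117 with no filter and 281 to 984 with 1 mouse left out, and the genes described 0 to 1. The cause of these shifts was not tested. The labels do not say what the last number of a name stands for, and no paired analysis was possible because F3-612 and P3-612 alone share one.

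Depth limits Pax5, Pax8 and Phox2a, at 0 to 2 counts in each digit 1 mouse.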
